A study of Mus musculus with 12 samples.

Results

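The genotype by injury interaction was measured here: for each gene, the change from sham surgery to ischemia-reperfusion injury (IRI) in mice without tubular Gpx3, minus the same change in wild-type (WT) mice. All 12 libraries of the series entered it, and 12469 of the 13465 genes of the deposited table passed the filter of at least 1 FPKM (a level scaled to transcript length and library size) in 3 libraries. RNA came from mouse renal cortex, with 3 libraries in each of 4 groups. WT sham (libraries 1 to 3) and CKO sham (1 to 3) had sham surgery, and WT IRI (13, 24 and 49) and CKO IRI (7, 15 and 29) had 30 min of bilateral renal ischemia and 48 h of reperfusion. CKO mice, per the series design text, lack Gpx3 in renal tubular epithelial cells, so other renal cells keep the gene. The Cre driver, strain, age and sex, and whether each library is a separate animal, are unstated in the labels, so each p-value rests on library-to-library spread that may be technical. The labels give kidney as tissue, although their extraction text names joint capsule. Markers of kidney segments were present in all 12 libraries, from Umod of the thick ascending limb at 582 to 1441 FPKM to the water channel Aqp2 of the collecting duct at 99 to 419 FPKM. Of 12 genes listed for cartilage and synovium, 1 passed the filter.

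Gpx3 encodes a selenium-dependent glutathione peroxidase that the proximal tubule secretes into plasma, where it reduces peroxides with glutathione. After ischemia the proximal tubule is the main site of damage: its cells lose transporters and brush border enzymes, switch on injury genes such as Havcr1 (kidney injury molecule 1), and surviving cells divide. The interaction asks whether that change differed between the genotypes. A value of 1 on the log2(FPKM + 1) scale says that the injury change was 1 unit higher in CKO than in WT, which holds equally for a gene that fell only in WT and for one that rose only in CKO. For this reason both injury changes, which share no library, stand beside each interaction value.

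Injured libraries differed from each other more than sham libraries did. The median SD per gene was 0.10 in WT sham, 0.17 in CKO sham, then 0.27 in WT IRI against 0.23 in CKO IRI (log2, n = 3 each). On the first principal component, which held 53.7% of the variance, sham libraries lay between -38.6 and -25.7, CKO IRI 15, 7 and 29 at 2.3, 18.3 and 36.3, and WT IRI 49, 24 and 13 at 25.2, 57.2 and 72.5. WT IRI 49 thus lay among the CKO IRI libraries, and the counts below are also given without it. It was picked for this position in the same data. Leaving it out therefore favours a larger genotype difference after injury, and results without it describe and test nothing. WT IRI 13 had the lowest share of FPKM from the mitochondrial genome, 3.94%, against 7.37% to 12.32% in the others. Of the sham libraries, CKO sham 1 lay nearest to the injured ones, at -25.7, with the others at -38.6 to -35. Its mean level of tubular injury genes, set to 0 in WT sham, was 0.56. In CKO sham 2 and 3 it was 0.17 and 0.14. For proximal tubule transport genes these levels were -0.29, -0.02 and -0.04 in CKO sham 1, 2 and 3. Read depth is unknown.

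Gpx3 itself, the sum of 3 deposited transcripts on chromosome 11 (54902453 to 54910377, plus strand, GRCm38), was the check of the labels. WT sham libraries held 5664, 4476 and 5371 FPKM and CKO sham libraries 2501, 3037 and 3299 FPKM. WT IRI libraries held 2788, 3568 and 1075 FPKM and CKO IRI libraries 3723, 3025 and 2779 FPKM. The genotypes were thus apart in sham, a separation found in 28.4% of all genes tested, and overlapped after injury. The sham difference in Gpx3, CKO minus WT, was -0.81 on the log2 scale and did not pass after adjustment. WT IRI and CKO IRI therefore stand throughout for libraries as labelled. In WT the level fell by 1.22 on the log2 scale with injury (limma adjusted p = 0.0221), and in CKO the difference was 0.11 (adjusted p = 0.891). The interaction was 1.33 (SE 0.51), with a limma p of 0.024 unadjusted and 0.231 adjusted. An exact permutation of the genotype labels within sham and within IRI gave a two-sided p of 0.025 over 400 arrangements, where 0.005 is the smallest possible. Its null is no genotype difference in either state, so it does not test equal injury changes alone. The interaction without WT IRI 49 was 0.81 (SE 0.26, limma adjusted p = 0.0939). The labels do not name the deleted exons, and reads from exons outside a deletion would not report it.

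Only 2 genes passed the interaction test at a limma adjusted p under 0.05 (Benjamini-Hochberg over all genes tested): Tmem67 above 0 and Pofut2 below 0, each 0.00802% of the genes tested. The next smallest adjusted p was 0.0883. At an unadjusted p under 0.05, 905 genes (7.26%) lay above 0 and 1328 (10.7%) below 0. Of all genes tested, 44.8% had an interaction above 0 at any p. These shares are the background for the counts of list members below. Without WT IRI 49, 310 genes (2.5%) passed above 0 and 269 (2.17%) below 0 of 12382 tested, the background for list counts without that library. Without WT IRI 13 the counts were 1 and 1, without WT IRI 24 they were 4 and 2, and without CKO sham 1 they were 2 and 1. With limma array weights, which give libraries that stand apart less weight, 841 genes passed. Of the 579 called without WT IRI 49, 413 were also called with array weights, which is 71.3% of the first list and 49.1% of the second. These 2 runs are not independent, since the array weight of WT IRI 49 was 0.332. The weights of WT IRI 13 and 24 were 0.237 and 1.047, and those of CKO IRI 7, 15 and 29 were 2.547, 0.45 and 0.327. CKO sham 1 had 0.411, against 2.234 to 2.498 in the other sham libraries. The weighted injured means thus leaned on WT IRI 24 and CKO IRI 7.

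Pofut2 had the smallest interaction p of all genes tested. It encodes protein O-fucosyltransferase 2, which adds fucose to thrombospondin type 1 repeats of secreted and membrane proteins in the endoplasmic reticulum. On GRCm38 the gene spans 77259218 to 77269575 of chromosome 10 (plus strand), and 2 of its 6 annotated transcripts were in the table. Nearly all of its level came from a protein-coding transcript of 9 exons. Its RefSeq promoter (GRCm38.p6, plus strand, chr10:77259050-77259349, 300 bases around the annotated start) is shown because this gene had the smallest p. Capitals mark the 1 match to the antioxidant response element core TGACNNNGC, searched on both strands, which 12.4% of 32851 promoters of this length hold:

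Pofut2: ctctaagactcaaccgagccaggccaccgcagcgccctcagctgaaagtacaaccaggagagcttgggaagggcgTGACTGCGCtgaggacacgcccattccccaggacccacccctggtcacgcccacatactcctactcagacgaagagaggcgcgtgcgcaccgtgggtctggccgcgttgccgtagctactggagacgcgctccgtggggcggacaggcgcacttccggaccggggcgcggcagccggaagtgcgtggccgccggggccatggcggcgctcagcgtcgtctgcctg

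Pofut2 measured 19.8, 20.5 and 20.4 FPKM in the WT sham libraries, against 23.3, 21.9 and 21.4 FPKM in CKO sham. It measured 26.9, 30.7 and 30.2 FPKM in WT IRI 13, 24 and 49, and 8.75, 9.09 and 9.96 FPKM in CKO IRI 7, 15 and 29. Each WT IRI library was above all sham libraries and each CKO IRI library below them, with little spread within a group (29.3 ± 2.05 against 9.27 ± 0.627 FPKM, SD, n = 3 each). The injury changes had opposite signs, and both passed: Pofut2 rose by 0.51 in WT (limma adjusted p = 0.00358) and fell by 1.18 on the log2 scale in CKO (adjusted p = 6.12e-05). The interaction was -1.69 (SE 0.14, limma adjusted p = 0.00192). It stayed past the threshold under all 24 alternatives computed, with values from -1.78 to -1.62. Pofut1, the fucosyltransferase that acts on EGF-like repeats, had an interaction of -0.18 (limma adjusted p = 0.59), and B3glct, which extends the fucose added by Pofut2 with glucose, -0.25 (adjusted p = 0.387). These 2 enzymes were singled out after the values had been seen.

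Tmem67 had the other called interaction. It encodes meckelin, a membrane protein of the transition zone at the base of the primary cilium, and its loss causes cystic kidneys in Meckel syndrome. The gene lies on chromosome 4 (12039355 to 12090020, minus strand, GRCm38), and 1 of its 6 annotated transcripts, with 28 exons, was in the table. The 6 sham libraries held 2.49 to 2.66 FPKM, and CKO IRI 7, 15 and 29 held 2.40, 2.23 and 2.15 FPKM. The table lists it at 0 in WT IRI 13 and 24 and at 0.09 FPKM in WT IRI 49. Only the WT IRI libraries stood apart, and a listed 0 in this table may be a transcript that was not assembled. Tmem67 fell by 1.79 on the log2 scale with injury in WT (limma adjusted p = 3.11e-06), while its change in CKO was -0.13 (adjusted p = 0.526). The interaction was 1.66 (SE 0.16, limma adjusted p = 0.00303), and 4.24 with a pseudocount of 0.1 in place of 1, since the level is low.

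Other genes of the ciliary transition zone were examined beside Tmem67. The list, written after the Tmem67 values had been seen, held 18 genes, of which 17 were tested. Their median interaction was -0.29, and 5 lay above 0. Apart from Tmem67, the lowest WT injury change of the list was -0.41. At an unadjusted p under 0.05, 1 member (Tmem67) lay above 0 and 2 below, against 7.26% and 10.7% of all genes.

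**Figure D1:**
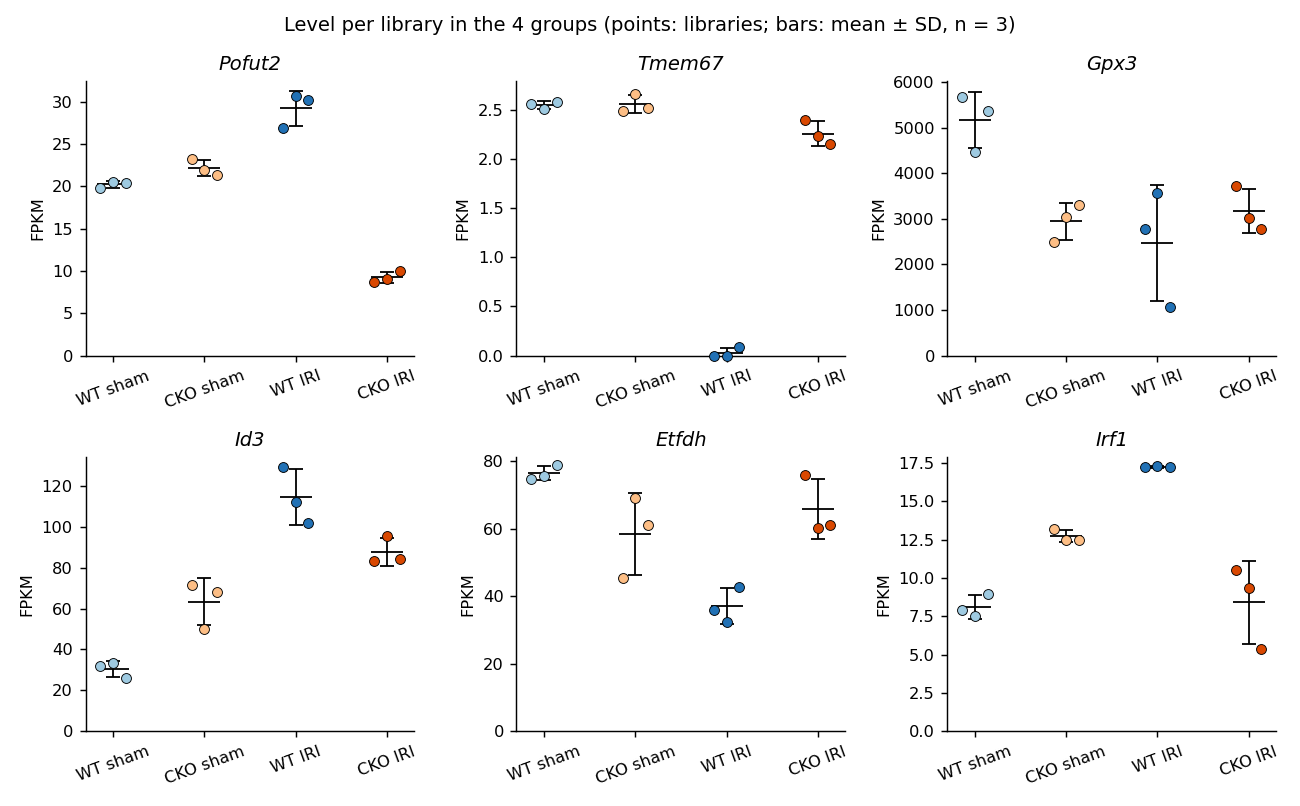
FPKM (y axis, linear, from 0) of 6 genes in the 12 libraries of the 4 groups; points are libraries and bars the mean ± SD (n = 3). Pofut2 is lowest in the 3 CKO IRI libraries (8.75 to 9.96 FPKM), Tmem67 is at or near 0 in the 3 WT IRI libraries, and Gpx3 separates the genotypes in sham only.

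Seen as differences between genotypes, more genes had the larger difference between injured libraries than between sham libraries. Between CKO sham and WT sham, 0 genes (0%) passed in either direction with limma, and with array weights 56 were higher and 68 lower. At an unadjusted p under 0.05, 438 (3.51%) were higher and 378 (3.03%) lower in CKO sham. Between CKO IRI and WT IRI these counts were 963 (7.72%) and 1646 (13.2%). After adjustment, 3 genes were higher in CKO IRI than in WT IRI (0.0241%) and 2 lower (0.016%). They were Tmem67, Crybg3 and Pde4b, and Pofut2 and Ankle1, all 5 among the leading genes described next. The adjusted counts were 650 and 744 without WT IRI 49, and 321 and 402 with array weights. Over all genes, 63.2% had the larger genotype difference between the injured libraries, and this share was 76.4% among the 2233 genes with an unadjusted interaction p under 0.05. Injured libraries also had the larger spread within groups, which favours a larger difference there. Libraries of the 2 genotypes did not overlap in 28.4% of all genes tested in sham and in 18.6% after injury.

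The 12 genes of smallest p on each side are described as leading genes. Besides Pofut2 and Tmem67 their adjusted p lay between 0.0883 and 0.176, so none of the others passed. Among the 12 above 0, the injury change in WT was below 0 in all 12 and passed in 10, and the change in CKO passed in 3. Among the 12 below 0, the WT change was above 0 in all 12 and passed in 11, and the CKO change passed in 3. With injury in WT, 3125 genes (25.1%) rose and 1483 (11.9%) fell, and in CKO 711 (5.7%) rose and 185 (1.48%) fell. The CKO counts moved with the library left out, to 331 higher and 65 lower without CKO sham 3 and to 1080 and 373 without CKO IRI 15. Since the leading genes were chosen by the interaction, these counts describe them and test nothing. On each side 8 of the 12 had the larger genotype difference between injured libraries and 4 between sham libraries.

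After Tmem67, Pde4b had the smallest p on the higher side. Pde4b, a phosphodiesterase that breaks down cAMP, measured 5.55, 4.41 and 6.04 FPKM in WT sham against 3.79, 4.18 and 3.71 FPKM in CKO sham. After injury it measured 1.38, 2.16 and 1.78 FPKM in WT and 4.93, 4.73 and 4.77 FPKM in CKO, with no overlap. It fell in WT (-1.19, limma adjusted p = 0.000289) and did not pass in CKO (0.25, adjusted p = 0.32), for an interaction of 1.44 (SE 0.20, adjusted p = 0.0883). Its FPKM is the sum of 4 deposited transcripts. Chuk, the IKK-alpha kinase of NF-kB signalling, fell in WT from 33.4 ± 1.87 to 20.9 ± 0.895 FPKM (SD, n = 3 each; limma adjusted p = 0.00238) and stood at 27.3 ± 2.45 and 32.1 ± 3.66 FPKM in CKO sham and CKO IRI, an interaction of 0.87 (SE 0.17). The libraries did not overlap between genotypes after injury, a separation found in 18.6% of all genes tested and in 10 of the 12 leading genes above 0.

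In 4 genes of this side (among them Errfi1, Kcnk5 and Ube2g2) the larger genotype difference was in sham. Errfi1, an inhibitor of the EGF receptor, measured 253, 259 and 268 FPKM in WT sham, 126, 163 and 119 FPKM in CKO sham, then 108, 145 and 114 FPKM in WT IRI against 179, 135 and 157 FPKM in CKO IRI. Kcnk5, a potassium channel of the proximal tubule, measured 50.8, 52.4 and 81.8 FPKM in WT sham against 21.5, 26.3 and 25.2 FPKM in CKO sham, and 25.3 to 39.2 FPKM in the 6 injured libraries. In Errfi1 and Kcnk5 WT sham stood above the other 3 groups, which overlapped in part. Both fell in WT (limma adjusted p = 0.00085 and 0.00222) and did not pass in CKO (0.468 and 0.144). Sham libraries of the 2 genotypes were apart in 9 of the 12 leading genes above 0 and in 11 of the 12 below 0, against 28.4% of all genes tested.

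Metabolic genes were Etfdh and Acot12. Etfdh, the mitochondrial enzyme that passes electrons from fatty acid oxidation to ubiquinone, measured 74.9, 75.8 and 79.0 FPKM in WT sham, against 35.9, 32.4 and 42.8 FPKM in WT IRI. In CKO it measured 45.3, 69.0 and 61.2 FPKM in sham and 76.0, 60.3 and 61.1 FPKM after injury. It fell in WT (-1.04, limma adjusted p = 0.00134), and the CKO groups overlapped (0.18, adjusted p = 0.545). The Etfdh level is the sum of 2 deposited transcripts. In WT IRI 24 and 49 1 of them was listed at 0 and the other held 32.4 and 42.8 FPKM. In WT IRI 13 they held 33.3 and 2.61 FPKM. A listed 0 may be a transcript that was not assembled. On the highest transcript the interaction of Etfdh was 3.8 (SE 1.55, limma adjusted p = 0.302). Acot12, an acetyl-CoA thioesterase, fell in WT from 30.6 ± 2.1 to 16.9 ± 1.97 FPKM (limma adjusted p = 0.00511) and stood at 23.4 ± 1.88 and 34.7 ± 9.48 FPKM in CKO sham and CKO IRI (SD, n = 3 each; adjusted p = 0.1).

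Ube2g2, Ube3a and Kbtbd4 were on the same side. Ube2g2, a ubiquitin-conjugating enzyme of endoplasmic reticulum-associated degradation, measured 14.1 to 15.9 FPKM in WT sham, 3.93, 7.27 and 8.52 FPKM in CKO sham, then 8.57 to 12.8 FPKM in WT IRI against 16.9 to 20 FPKM in CKO IRI. It rose with injury in CKO (1.44, limma adjusted p = 0.00379) and did not pass in WT (-0.39, adjusted p = 0.206). Ube3a, the E6-AP ubiquitin ligase, had an interaction of 1.17 as a sum and -0.12 on its higher transcript. That transcript, of 13 exons, held 3.29 to 5.23 FPKM over the 12 libraries. Another, of 11 exons, held 0.14, 2.02 and 2.44 FPKM in WT sham, 4.92, 6.07 and 3.24 FPKM in CKO IRI and at most 0.07 FPKM in WT IRI and CKO sham. Kbtbd4, a BTB-Kelch adaptor, measured 8.84, 8.10 and 8.46 FPKM in WT sham, 2.60, 9.43 and 2.73 FPKM in CKO sham, then 2.07 to 2.55 FPKM in WT IRI against 8.63 to 11.3 FPKM in CKO IRI. CKO sham 2 stood apart from its group there. For these low genes the sum depends on how reads were shared between transcripts. Crybg3 was on the same side, at 0.56 to 1.10 FPKM in WT IRI and 2.68 to 3.60 FPKM in the other 9 libraries.

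**Figure D2:**
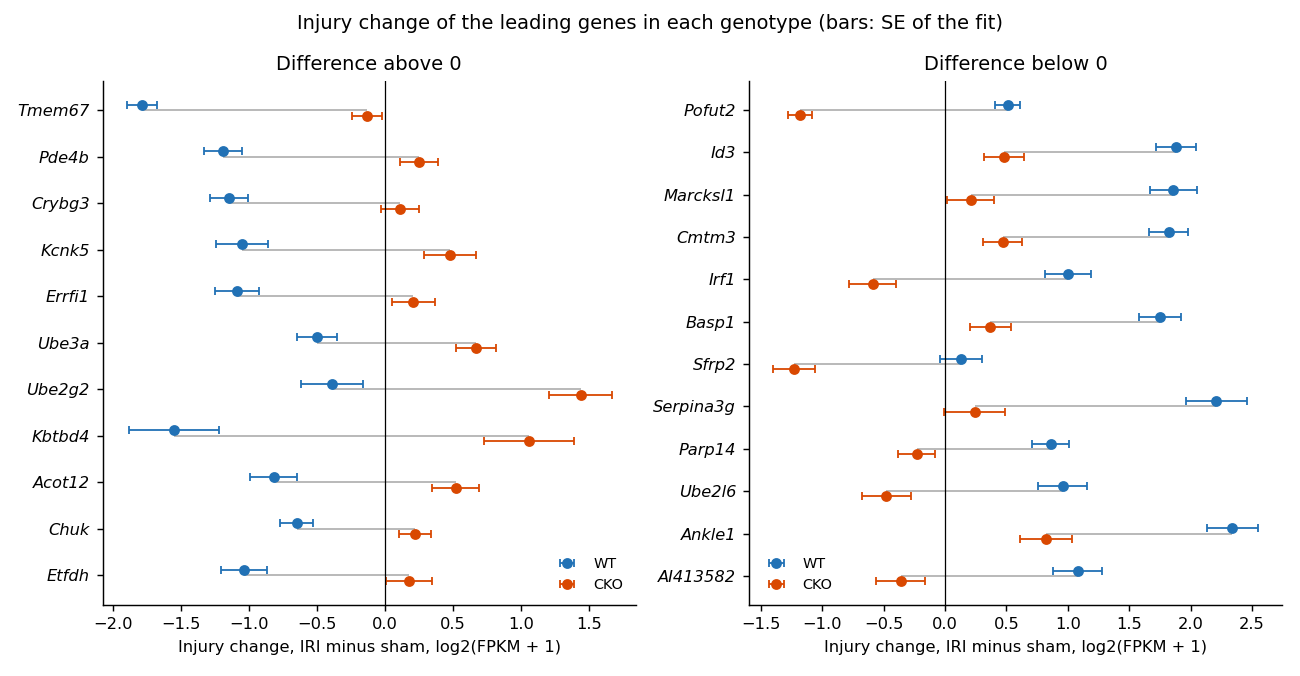
Injury change (x axis, IRI minus sham, log2(FPKM + 1)) of leading genes above 0 (left) and below 0 (right) in WT (blue) and CKO (orange), with the SE of the fit. The WT change is below 0 in each gene on the left and above 0 in each on the right, because the genes were chosen by the difference.

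On the lower side, Id3, an inhibitor of basic helix-loop-helix factors, was the leading gene after Pofut2. It measured 31.7, 33.3 and 26.0 FPKM in WT sham against 71.6, 50.1 and 68.0 FPKM in CKO sham. After injury it measured 129, 112 and 102 FPKM in WT and 83.2, 95.5 and 84.1 FPKM in CKO. The order of the groups was WT sham, CKO sham, CKO IRI and WT IRI with no overlap between neighbours. Id3 rose in WT (1.88, limma adjusted p = 2.52e-05) and did not pass in CKO (0.48, adjusted p = 0.0959), for an interaction of -1.40 (SE 0.22, adjusted p = 0.148).

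Marcksl1 and Basp1, membrane-bound proteins tied to the actin cytoskeleton, and Cmtm3, a MARVEL-domain membrane protein, rose in WT and did not pass in CKO. Marcksl1 measured 5.74 to 7.77 FPKM in WT sham and 22.3 to 29.7 FPKM in WT IRI, against 8.24 to 12.2 and 9.92 to 14.3 FPKM in CKO sham and CKO IRI. Basp1 reached 6.36 to 11.1 FPKM in WT IRI against 3.37 to 3.50 FPKM in CKO IRI, and Cmtm3 17.5 to 21.6 and 8.71 to 13.1 FPKM. The injured libraries of the 2 genotypes did not overlap in any of these 3 genes, a separation found in 18.6% of all genes tested. The 3 were chosen by interaction p, which favours it. Serpina3g, a serine protease inhibitor of immune cells, rose in WT from 1.07 ± 0.117 to 8.79 ± 2.52 FPKM (limma adjusted p = 0.000218) and stood at 2.13 ± 0.377 and 2.85 ± 1.33 FPKM in CKO sham and CKO IRI (SD, n = 3 each; adjusted p = 0.595). Ankle1, a nuclease with ankyrin repeats, measured 0 to 0.28 FPKM in the 6 sham libraries, 3.31 to 5.97 FPKM in WT IRI against 0.56 to 1.33 FPKM in CKO IRI. It rose in both genotypes (limma adjusted p = 3.98e-05 and 0.0417). Sfrp2, a secreted Wnt antagonist, was the exception on this side: it measured 4.00 to 5.24 FPKM in CKO sham and 0.89 to 1.79 FPKM in the other 9 libraries, and fell in CKO (-1.23, limma adjusted p = 0.00187). The uncharacterised gene AI413582 completes the side, with an interaction of -1.44 (SE 0.29).

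Irf1, the transcription factor that interferon-gamma induces, was the 1 leading gene below 0 that is also on the interferon response list. Parp14, an ADP-ribosyltransferase, and Ube2l6, the conjugating enzyme of the ubiquitin-like protein Isg15, were leading genes that are not on that list. Irf1 measured 7.88, 7.50 and 8.98 FPKM in WT sham against 13.2, 12.5 and 12.5 FPKM in CKO sham. After injury it measured 17.2, 17.3 and 17.2 FPKM in WT and 10.5, 9.31 and 5.38 FPKM in CKO. CKO libraries were thus above WT in sham and below WT after injury, without overlap in either. Irf1 rose in WT (1.00, limma adjusted p = 0.00291), and its CKO change was -0.59 (adjusted p = 0.0847), for an interaction of -1.59 (SE 0.27, adjusted p = 0.148). Its 4 deposited transcripts shared the level differently from library to library, so the sum is the quantity used. Irf1 lies 1.12 Mb from Gpx3 on chromosome 11.

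Over the 33 tested genes of the interferon response list (36 listed), the median interaction was -0.69, against -0.06 over all genes tested. Of the 33, 29 lay below 0, 14 with an unadjusted p under 0.05, against 10.7% of all genes on that side, and 0 passed the adjusted test. The list was taken up after its values had been seen, as were the ribosomal and amino acid lists below. Its median injury change was 0.18 in WT, where 12 members rose and 2 fell, and -0.31 in CKO, where 0 rose and 4 fell. The mean level of the list, set to 0 in WT sham, was 0.64, 0.47 and 0.25 in CKO sham 1, 2 and 3, 0.14, 0.22 and 0.63 in WT IRI 13, 24 and 49, and -0.03, 0.16 and 0.05 in CKO IRI 7, 15 and 29. Psmb8, an immunoproteasome subunit, measured 7.79 to 8.24 FPKM in WT sham, 8.37 to 14.9 in CKO sham, then 16.7 to 22.1 in WT IRI against 9.85 to 12.2 in CKO IRI. It rose in WT (1.17, limma adjusted p = 0.00126) and did not in CKO (-0.07, adjusted p = 0.864). Ifit1, an RNA-binding antiviral protein, measured 1.77 to 2.52 FPKM in WT sham, 3.86 to 7.67 in CKO sham, then 4.23 to 6.98 in WT IRI against 2.17 to 4.00 in CKO IRI. Without WT IRI 49, 2 members of the list passed below 0, against 2.17% of all genes, and the list median was -0.58. Irf1 and Psmb8 were those named here that did (limma adjusted p = 0.0319 and 0.0483). As that library was picked in the same data, this tests nothing.

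The promoters of Irf1 and Psmb8 are shown because these members of the list had the smallest interaction p. RefSeq has a further Irf1 promoter (chr11:53770223-53770522), which holds none of the motifs searched and is not printed. RefSeq holds 34 promoters for 29 of the 33 genes. The gamma-activated sequence TTCNNNGAA, a palindrome of promoters that interferon-gamma induces, was searched on both strands and was added after the values had been seen. It was present in 10 of the 34 promoters, against 8.3% of 32851. Of the other motifs searched, the antioxidant response element core was in 8 of the 34 (12.4% of all promoters) and AP-1 in 6 (7.81%). The cell cycle homology region was in 6 (17.9%), the CCAAT box in 14 (37.4%) and the E-box in 0 (7.15%). Shares above those of all promoters were thus not limited to the gamma-activated sequence. Capitals mark the gamma-activated sequence in both promoters, and in Irf1 also a CCAAT box. They are Irf1 (GRCm38.p6, plus strand, chr11:53769764-53770063) and Psmb8 (GRCm38.p6, plus strand, chr17:34197945-34198244):

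Irf1: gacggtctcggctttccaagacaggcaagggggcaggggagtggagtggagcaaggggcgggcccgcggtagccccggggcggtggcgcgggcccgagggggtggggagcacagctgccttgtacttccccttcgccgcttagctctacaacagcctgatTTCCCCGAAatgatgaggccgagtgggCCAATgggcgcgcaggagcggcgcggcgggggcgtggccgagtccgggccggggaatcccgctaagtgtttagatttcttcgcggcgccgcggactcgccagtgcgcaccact

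Psmb8: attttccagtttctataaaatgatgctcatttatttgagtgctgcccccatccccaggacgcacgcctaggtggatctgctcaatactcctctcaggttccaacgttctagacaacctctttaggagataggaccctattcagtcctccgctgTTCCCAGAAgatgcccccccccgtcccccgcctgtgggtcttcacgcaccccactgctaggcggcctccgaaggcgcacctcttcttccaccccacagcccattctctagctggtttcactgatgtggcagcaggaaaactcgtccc

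A match describes the letters only. Among the leading genes, 9 of the 12 above 0 had 14 RefSeq promoters and 11 of the 12 below 0 had 12. The gamma-activated sequence was in 2 of the 14 and 2 of the 12. AP-1 (TGANTCA, in 7.81% of all promoters) was in 0 of either set and the cell cycle homology region (TTTGAA, 17.9%) in 2 and 3. The E-box (CACGTG, 7.15%) was in 1 and 0, the antioxidant response element core in 1 and 1, and the CCAAT box in 5 and 3.

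**Figure D3:**
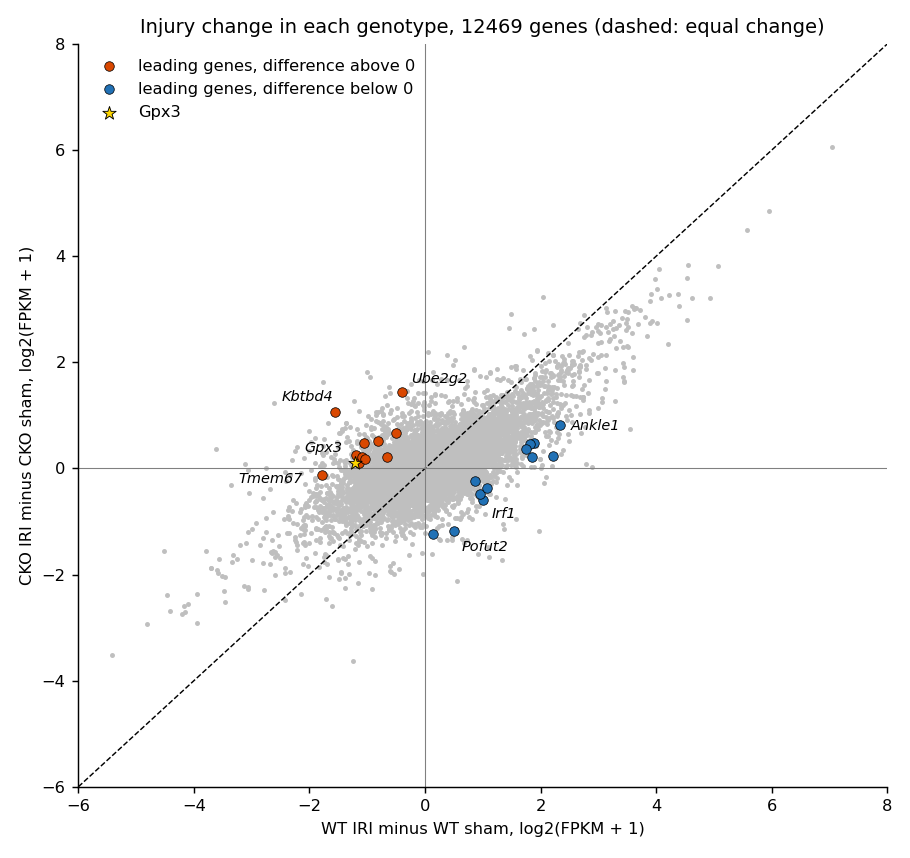
Injury change in WT (x axis) and in CKO (y axis), both IRI minus sham on the log2(FPKM + 1) scale, for the 12469 genes tested; the dashed line marks equal change. The leading genes lie off the line by construction, and most genes with a large change in WT lie between the line and 0.

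Across all genes the injury change went mostly the same way in both genotypes with the smaller median in CKO. The 4608 genes called in WT had a median size of 0.85, and their median change in CKO, taken in the WT direction, was 0.35, with 572 of the other sign. The 896 genes called in CKO had a median size of 1.06, against 1.23 in WT in the same direction. Each list was chosen in 1 genotype, which favours a large change there. Of 751 genes called in both, 748 had the same direction and 559 a larger change in WT. Across genes, which are not independent replicates, Pearson's r of the 2 changes was 0.70. Among the 2233 genes with an unadjusted interaction p under 0.05, 1111 had changes of the same sign that were smaller in CKO, 1066 had opposite signs and 56 were larger in CKO. Over all 12469 genes these numbers were 6309, 3716 and 2444, so the share that was smaller in CKO was about that of all genes.

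The order of the 2 sizes depended on libraries. Without CKO IRI 15, the injured library nearest to sham, 1111 genes were called in both genotypes and 643 had the larger change in WT. Genes called in CKO then had a median size of 1.03 there and 0.96 in WT. Without CKO IRI 15 and WT IRI 13 together, an alternative chosen after seeing the data, 822 of 1328 were larger in WT. The same count was 916 of 1126 without WT IRI 49. Markers of tubular injury, given below, moved with these sizes, and their part in the result was not tested.

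Genes of the proximal tubule, the segment that reclaims filtered solutes, fell in WT, and few of them passed in CKO. In WT 36 of 44 tested genes of transport and endocytosis fell and 0 rose, and in CKO 5 fell. Their median change was -1.43 in WT and -0.64 in CKO. The median interaction was 0.90, with 41 of 44 above 0, 11 of them at an unadjusted p under 0.05 (7.26% of all genes on that side), and 0 passed. Slc17a3, a urate and phosphate transporter of the apical membrane, measured 99.6, 102 and 106 FPKM in WT sham, 91.5, 103 and 88.7 FPKM in CKO sham, then 19, 25 and 41.6 FPKM in WT IRI against 51.1, 58.6 and 59.7 FPKM in CKO IRI. Its injured groups did not overlap, and the WT library nearest to CKO was 49. The interaction was 1.15 (SE 0.31, limma adjusted p = 0.188). Without WT IRI 49 it was 1.45 (SE 0.18, limma adjusted p = 0.0154), a description that tests nothing. Slc16a9, a carnitine and creatine transporter, measured 35.6 to 38.9 FPKM in WT sham, 10.6, 11.6 and 22.5 FPKM in WT IRI against 34.6, 39.0 and 21.4 FPKM in CKO IRI. Slc4a4, the basolateral sodium bicarbonate cotransporter, fell in WT (-1.39, limma adjusted p = 0.00755) and did not in CKO (0.04, adjusted p = 0.958).

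The mean level of the transport list, set to 0 in WT sham, was -2.02, -1.92 and -0.86 in WT IRI 13, 24 and 49 and -0.63, -0.58 and -1.29 in CKO IRI 7, 15 and 29. WT IRI 49 and CKO IRI 29 thus crossed over, and the injured groups overlapped. Of 43 members tested without WT IRI 49, 11 passed above 0 and 0 below, against 2.5% and 2.17% of all genes. As that library was picked in the same data, this tests nothing. The median interaction was 0.59 without WT IRI 13 and 0.52 without WT IRI 13 and CKO IRI 15. In cortex as a whole, fewer proximal tubule cells and less RNA per cell cannot be told apart.

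Brush border enzymes moved with the transporters. In WT 9 of 14 passed as lower and in CKO 0 passed, with median changes of -1.19 and -0.43. The median interaction was 0.74 with 14 of 14 above 0, 3 at an unadjusted p under 0.05 (7.26% of all genes on that side). Anpep, aminopeptidase N, measured 74.2 to 81.5 FPKM in WT sham, 35.6, 26.4 and 55.8 FPKM in WT IRI against 65.6, 78.3 and 50.9 FPKM in CKO IRI. Ggt1, the glutathione-degrading gamma-glutamyltransferase, measured 421 to 464 FPKM in WT sham, 120, 136 and 283 FPKM in WT IRI against 228 to 313 FPKM in CKO IRI. Ace, angiotensin-converting enzyme, measured 56.2 to 74.8 FPKM in WT sham, 3.65, 3.98 and 18.5 FPKM in WT IRI against 10.7 to 34.2 FPKM in CKO IRI. CKO sham libraries held 64.6 to 70.8 FPKM of Anpep, 317 to 430 FPKM of Ggt1 and 41.1 to 64.5 FPKM of Ace. Ggt1 and Ace were thus lower in CKO IRI than in CKO sham without overlap, but did not pass (-0.45 and -1.4, limma adjusted p = 0.358 and 0.128). In all 3 genes WT IRI 49 overlapped with CKO IRI and WT IRI 13 and 24 did not. With all libraries their interactions did not pass (limma adjusted p = 0.211, 0.246 and 0.267). Without WT IRI 49 these 3 (limma adjusted p = 0.0335, 0.0279 and 0.0398) and 1 further member passed, against 2.5% of all genes. As that library was picked in the same data, this tests nothing.

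Fatty acid oxidation is the main fuel use of the proximal tubule. In WT 21 of 42 genes fell and 0 rose, and in CKO 0 fell and 4 rose. The median change was -0.59 in WT and 0.11 in CKO. The median interaction was 0.74, with 39 of 42 above 0. Of these, 21 had an unadjusted p under 0.05 (7.26% of all genes on that side), and 0 passed. The list level did not overlap between injured groups: -0.76, -0.79 and -0.42 in WT IRI 13, 24 and 49 and 0.05, 0.03 and -0.29 in CKO IRI 7, 15 and 29. Ehhadh, the peroxisomal bifunctional enzyme, measured 264, 258 and 287 FPKM in WT sham, 219, 257 and 206 FPKM in CKO sham, then 52.5, 51.5 and 65.0 FPKM in WT IRI against 194, 158 and 95.8 FPKM in CKO IRI. It fell in WT (-2.24, limma adjusted p = 7.69e-05) and did not pass in CKO (-0.66, adjusted p = 0.0988). Cyp4a14, an omega-hydroxylase of fatty acids and a target of PPAR-alpha, measured 137 to 192 FPKM in WT IRI against 382, 248 and 297 FPKM in CKO IRI. It rose in CKO (1.42, limma adjusted p = 0.00379) and not in WT (-0.12, adjusted p = 0.709). Without WT IRI 49, 11 of 42 members passed above 0 (2.5% of all genes), Ehhadh, Cyp4a14 and Etfdh among them. As that library was picked in the same data, this tests nothing.

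Amino acid breakdown and drug metabolism followed. Of 33 tested amino acid genes 26 fell and 1 rose in WT, and 1 fell and 2 rose in CKO. Their median changes were -1.28 in WT and -0.64 in CKO. The median interaction was 0.65, with 30 of 33 above 0 and 10 at an unadjusted p under 0.05 (7.26% of all genes on that side). Gldc, glycine decarboxylase of the glycine cleavage system, measured 71.3 to 103 FPKM in WT sham, 51.7 to 91.3 FPKM in CKO sham, then 40.4, 49.4 and 18.1 FPKM in WT IRI against 147, 97.5 and 105 FPKM in CKO IRI. Glud1, glutamate dehydrogenase, measured 122 to 143 FPKM in WT IRI against 174 to 226 FPKM in CKO IRI, without overlap. Ddc, aromatic amino acid decarboxylase, fell in WT from 87.0 ± 3.88 to 23.2 ± 8.56 FPKM (limma adjusted p = 0.00011) and stood at 55.9 ± 1.07 and 33.5 ± 4.12 FPKM in CKO sham and CKO IRI (SD, n = 3 each; adjusted p = 0.05, at the threshold). With all libraries the interactions of the 3 did not pass (limma adjusted p = 0.188 each). All 3 passed without WT IRI 49, Ddc at an interaction of 1.46 (SE 0.16, limma adjusted p = 0.00659). As that library was picked in the same data, this tests nothing. The 27 genes of cytochrome P450 and conjugation had a median of 0.68, with 21 above 0 and 4 at an unadjusted p under 0.05 (7.26% of all genes on that side). Sult1d1, a sulfotransferase, measured 140 to 209 FPKM in WT IRI against 268 to 426 FPKM in CKO IRI and rose in CKO (0.75, limma adjusted p = 0.0438). Ugt1a6a, a glucuronosyltransferase, differed mainly in sham, at 37.4 to 69.0 FPKM in WT and 18.8 to 26.3 FPKM in CKO. Without CKO IRI 15 the median of this list was 0.36. Gstt2, a glutathione transferase, lay on the other side at -0.90, but at 1.0 on its highest transcript.

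**Figure D4:**
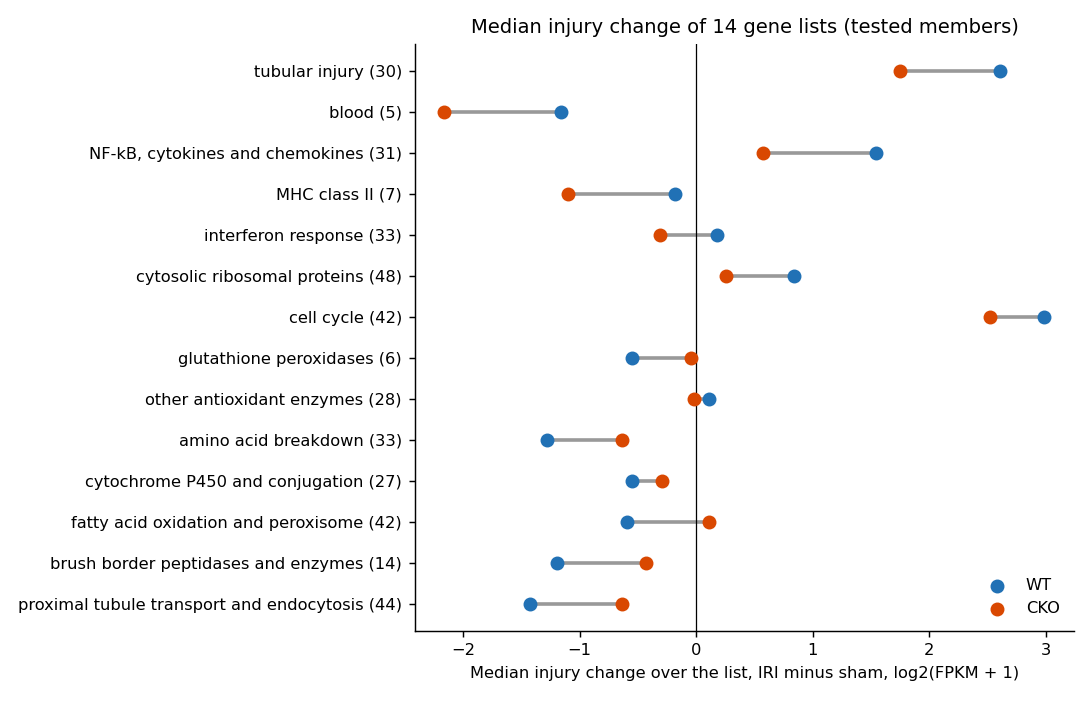
Median injury change (x axis, IRI minus sham, log2(FPKM + 1)) of 14 gene lists in WT (blue) and CKO (orange), with the number of tested members in brackets; the difference of 2 medians need not equal the median interaction. Tubular injury genes stand at 2.61 in WT and 1.75 in CKO, and proximal tubule transport genes at -1.43 and -0.64.

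Tubular injury genes rose in both genotypes, with the lower median in CKO. All 30 rose in WT and 20 rose in CKO, with medians of 2.61 and 1.75. The median interaction was -1.0, with 30 of 30 below 0 and 11 at an unadjusted p under 0.05 (10.7% of all genes on that side), and 0 passed. Vim, the intermediate filament vimentin that dedifferentiated tubule cells express, measured 14 to 16.1 FPKM in WT sham, 19.1 to 29.7 FPKM in CKO sham, then 270, 168 and 85.1 FPKM in WT IRI against 53.9, 49 and 75.4 FPKM in CKO IRI. It rose in WT (3.29, limma adjusted p = 0.000122) and in CKO (1.28, adjusted p = 0.0486), for an interaction of -2.01 (SE 0.49, adjusted p = 0.188). S100a6, a calcium-binding protein, measured 243 to 593 FPKM in WT IRI against 147 to 205 FPKM in CKO IRI, and Vcam1, an adhesion molecule of maladaptive tubule cells, 22.7 to 53.4 and 5.66 to 17.2 FPKM. Injured groups did not overlap in these 3 genes, which the rule chose for their interaction p, against 18.6% of all genes tested.

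Havcr1 and Lcn2 (the lipocalin NGAL), singled out after their values had been seen as the usual injury markers, overlapped. Havcr1 measured 370, 348 and 276 FPKM in WT IRI 13, 24 and 49 and 228, 90.6 and 408 FPKM in CKO IRI 7, 15 and 29. Lcn2 measured 361, 465 and 147 FPKM and 181, 107 and 429 FPKM in the same libraries. CKO IRI 29 was as high as WT in both and CKO IRI 15 the lowest. Their interactions were -1.0 (SE 0.69, limma adjusted p = 0.444) and -1.09 (SE 0.78, adjusted p = 0.459). The list level was 3.50, 3.25 and 2.44 in WT IRI and 2.39, 1.76 and 2.88 in CKO IRI, so the injured groups overlapped as well. Its median interaction was -1.26 without WT IRI 49, -0.65 without CKO IRI 15, and -0.48 without CKO IRI 15 and WT IRI 13. Without WT IRI 49, picked in the same data, 7 members passed below 0 (2.17% of all genes), which tests nothing.

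Cell cycle genes rose in both genotypes. In WT 41 of 42 rose and in CKO 40, with medians of 2.99 and 2.52. The median interaction was -0.51, 42 of 42 lay below 0, and 9 had an unadjusted p under 0.05 (10.7% of all genes on that side). Ube2c, the ubiquitin-conjugating enzyme of the anaphase-promoting complex, measured 77.7, 79.8 and 89.0 FPKM in WT IRI against 77.7, 54.3 and 53.6 FPKM in CKO IRI. Kif23, a kinesin of the central spindle, measured 37.3, 29.4 and 14.5 FPKM in WT IRI against 13, 10.3 and 13.7 FPKM in CKO IRI. Birc5, survivin, measured 104, 63.0 and 54.8 FPKM in WT IRI against 40.3, 24.5 and 42.2 FPKM in CKO IRI. The list level was 3.03, 2.95 and 2.91 in WT IRI and 2.75, 2.02 and 2.75 in CKO IRI, and CKO IRI 15 stood apart. Without that library the median interaction was -0.32, more than 1.5 times nearer to 0. Kif23 was the 1 member of 42 that passed without WT IRI 49, against 2.17% of all genes.

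Ribosomal protein genes rose in WT, and few passed in CKO. Of 48 genes for proteins of the cytosolic ribosome 44 rose in WT and 3 in CKO, with median changes of 0.84 and 0.26. All 48 interactions lay below 0, down to -0.98, 37 had an unadjusted p under 0.05 (10.7% of all genes on that side), and 0 passed. The median was -0.56, and -0.41 with quantile normalization and -0.50 with trimmed-mean scaling. Rps16, a protein of the small subunit, measured 82.5, 81.4 and 82.2 FPKM in WT sham, 123, 93.7 and 102 FPKM in CKO sham, then 206, 184 and 157 FPKM in WT IRI against 126, 127 and 147 FPKM in CKO IRI. Rps27a, whose product is a ubiquitin fusion, measured 397 to 478 FPKM in WT IRI against 285 to 337 FPKM in CKO IRI, and Rpl22, of the large subunit, 73.5 to 92.7 and 62.3 to 68.7 FPKM. CKO sham lay above WT sham in all 3 genes and CKO IRI below WT IRI. The genotypes were apart in 28.4% of all genes tested in sham and 18.6% after injury. Without WT IRI 49, 20 of 48 members passed below 0, against 2.17% of all genes (limma adjusted p = 0.0319 for Rps27a and 0.0351 for the other 2). As that library was picked in the same data, this tests nothing. Ribosomal protein genes have many near-identical pseudogenes that can share their reads.

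**Figure D5:**
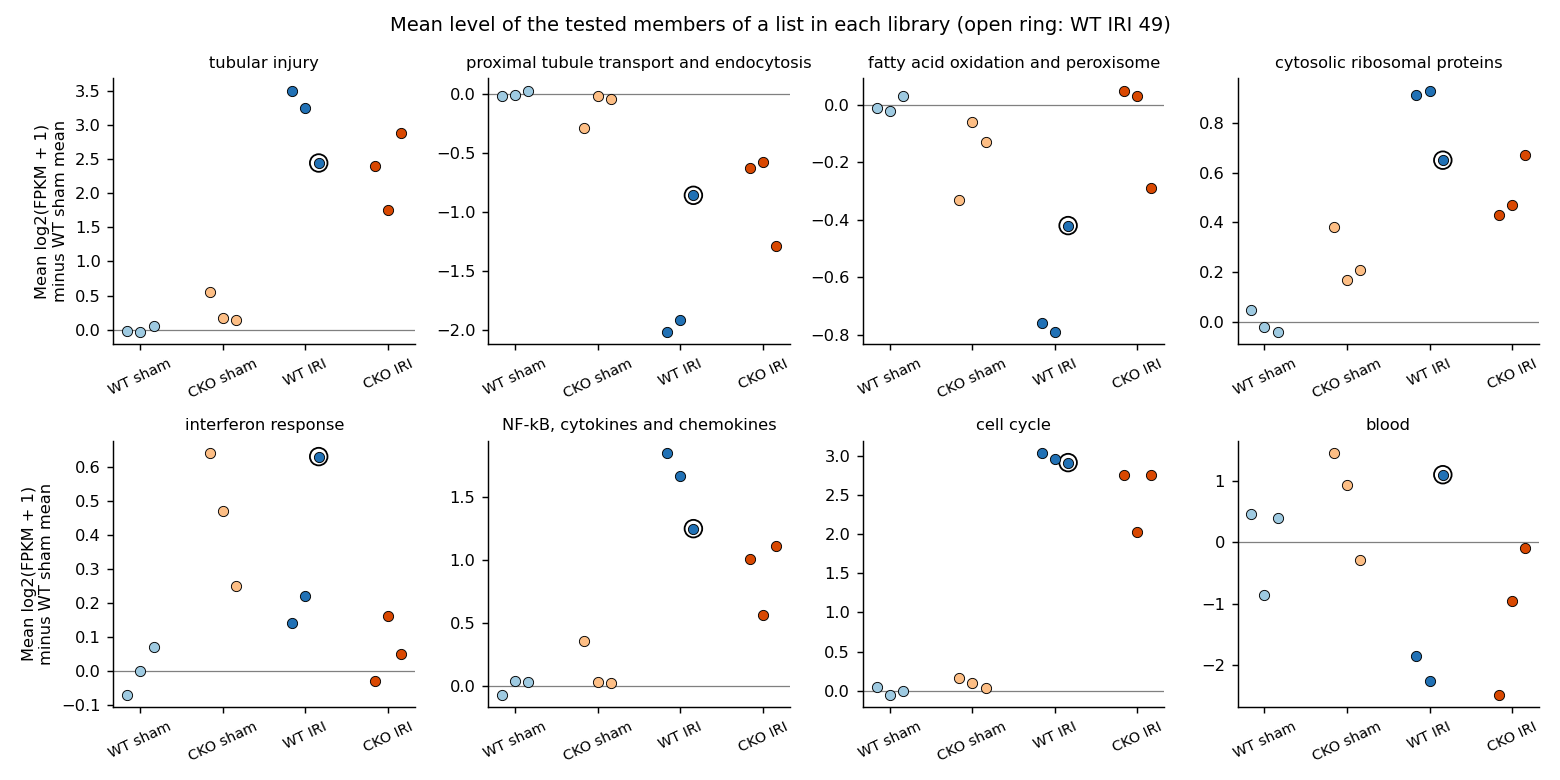
Mean log2(FPKM + 1) over the tested members of 8 gene lists in each library, minus the WT sham mean (y axes differ between panels); colours are the 4 groups and an open ring marks WT IRI 49. Injured groups do not overlap for fatty acid oxidation, NF-kB and cytokine, and cell cycle genes, and WT IRI 49 lies nearest to the CKO IRI libraries, or among them, for tubular injury, proximal tubule and ribosomal protein genes.

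NF-kB is the transcription factor that drives cytokine and chemokine genes, and of 31 genes of this list 26 rose in WT and 8 in CKO, with medians of 1.54 and 0.57. The median interaction was -0.81, with 28 below 0 and 16 at an unadjusted p under 0.05 (10.7% of all genes on that side), and 0 passed. Relb, a subunit of the alternative NF-kB pathway, measured 0.75, 2.20 and 1.73 FPKM in WT sham, 2.42 to 3.18 FPKM in CKO sham, then 11.7, 15.8 and 7.65 FPKM in WT IRI against 4.53, 4.75 and 4.29 FPKM in CKO IRI. Nfkbie, the inhibitor I-kappa-B epsilon, measured 5.74 to 8.78 FPKM in WT IRI against 2.63 to 3.39 FPKM in CKO IRI. Cxcl2, a neutrophil chemokine, measured 13.2, 8.70 and 4.69 FPKM in WT IRI against 4.46, 0.77 and 3.25 FPKM in CKO IRI, and its sham level was higher in CKO (1.72 to 3.25 FPKM against 0.04 to 1.08 FPKM). The 3 genes rose in WT and did not pass in CKO. With all libraries none of the 3 passed the interaction test (limma adjusted p = 0.176, 0.177 and 0.188). Without WT IRI 49 all 3 did (limma adjusted p = 0.0264, 0.0272 and 0.038). In that fit 6 of 30 members passed below 0, against 2.17% of all genes. The library was picked in the same data, so these results are a description and test nothing.

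Markers of immune and other cells were examined beside these lists. Of 24 tested macrophage and monocyte genes 11 rose in WT and 1 in CKO, and the list level was 1.08, 0.25 and 1.04 in WT IRI and 0.66, 0.63 and 0.29 in CKO IRI. The median interaction of that list was -0.55, with 22 below 0 and 6 at an unadjusted p under 0.05 (10.7% of all genes on that side). The part of these cells in the inflammatory result was not tested. The 4 tested neutrophil genes had a median of -0.21, and their part was not tested. MHC class II genes, of antigen-presenting cells, had a median of -0.78, or -0.5 without WT IRI 49. Of these, 7 of 7 lay below 0 and 2 had an unadjusted p under 0.05 (10.7% of all genes on that side). H2-DMa, which loads peptides, measured 10.1 to 17.5 FPKM in WT IRI against 8.15 to 9.13 FPKM in CKO IRI, and rose in WT (0.72, limma adjusted p = 0.0131). H2-DMb2 rose in WT (1.53, limma adjusted p = 0.00443) and stood at 2.16 to 6.07 and 1.58 to 3.18 FPKM in CKO IRI and CKO sham. H2-Ab1 measured 72.2, 56.5 and 143 FPKM in WT IRI against 86.4, 58.6 and 30.2 FPKM in CKO IRI, with its highest level in WT IRI 49. Endothelial genes had a median of -0.31 (-0.54 without CKO IRI 15) and fibroblast genes of -0.31 (-0.11 without WT IRI 49). Loop of Henle and distal tubule genes had a median of 0.35 (0.81 without WT IRI 49) and podocyte genes of 0.28 (0.47 without it). Of 22 collecting duct genes 11 lay above 0.

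Blood genes varied widely within groups. The list level of 5 tested genes of red cells ran from -2.48 in CKO IRI 7 to 1.45 in CKO sham 1, with -1.85, -2.26 and 1.10 in WT IRI 13, 24 and 49. Hbb-bs, the beta-globin of adult mice, measured 17.5, 13.2 and 209 FPKM in those 3 libraries and 8.26, 38.0 and 83.1 FPKM in CKO IRI, and Hbb-bt, its neighbour, 6.76, 2.41 and 64.2 FPKM and 1.56, 10.3 and 18.3 FPKM. The 2 globin genes are near copies that can share reads. The median interaction was -0.88, 0 of 5 had an unadjusted p under 0.05, and it was 0.23 without WT IRI 49.

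The glutathione peroxidase family lay on both sides of 0. Of 6 tested members 1 (Gpx3) had an unadjusted p under 0.05 above 0 and 2 (Gpx7 and Gpx8) below 0. These shares were 7.26% and 10.7% over all genes. The median of the 6 was 0.03. Gpx8 and Gpx7 are peroxidases of the endoplasmic reticulum. Gpx8 measured 13.6 to 14.5 FPKM in WT sham, 16.6 to 23.4 FPKM in CKO sham, then 25.9 to 27.4 FPKM in WT IRI against 16.3, 20.9 and 26.0 FPKM in CKO IRI. It rose in WT (0.87, limma adjusted p = 0.0032) and did not pass in CKO (0.10, adjusted p = 0.759), for an interaction of -0.77 (SE 0.24, adjusted p = 0.189). Gpx7 rose in both (limma adjusted p = 0.000398 and 0.0455), to 7.04 to 11.6 FPKM in WT IRI against 3.62 to 5.77 FPKM in CKO IRI. Gpx4, which reduces lipid peroxides in membranes and limits ferroptosis, stood at 366 to 631 FPKM in all 12 libraries with an interaction of -0.03 (SE 0.21). Gpx1, the main cytosolic peroxidase, varied from 196 to 1052 FPKM with wide spread in each group (interaction 0.09, SE 1.01). Gpx6 had an interaction of 0.76 (SE 1.17). Gpx1, Gpx4 and Gpx6 were named after their values had been seen, to complete the family.

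Of the 28 other antioxidant enzymes 16 lay above 0 and 12 below, with a median of 0.08; 2 had an unadjusted p under 0.05 above 0 and 3 below, shares close to the 7.26% and 10.7% of all genes, and 0 passed. The members of smallest p, given as a description, were Prdx4, Selenow and Prdx2. Prdx4, the peroxiredoxin of the endoplasmic reticulum, measured 32.2 to 44.2 FPKM in WT IRI against 23.7 to 33.4 FPKM in CKO IRI. Selenow, a small selenoprotein, measured 260, 268 and 178 FPKM in WT IRI against 120, 139 and 201 FPKM in CKO IRI, and Prdx2, the cytosolic peroxiredoxin, 167 to 200 and 136 to 169 FPKM. All 3 rose in WT (limma adjusted p = 0.00133, 0.00228 and 0.00969) and overlapped between genotypes after injury. Cat, catalase of the peroxisome, singled out after its values had been seen, measured 134, 163 and 226 FPKM in WT IRI against 279, 290 and 270 FPKM in CKO IRI. It fell in WT (-1.11, limma adjusted p = 0.00224) and did not pass in CKO (-0.31, adjusted p = 0.369), an interaction of 0.79 (SE 0.28, adjusted p = 0.215).

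Ferroptosis is the death of cells by lipid peroxides and iron that glutathione peroxidases oppose. The 23 tested genes of ferroptosis and iron handling had a median interaction of 0.03. At an unadjusted p under 0.05, 5 lay above 0 and 1 below, against 7.26% and 10.7% of all genes. Ncoa4, the receptor that sends ferritin to the lysosome, had the highest interaction of that list, 3.39 (SE 0.89, limma adjusted p = 0.188), and was named after this had been seen. Its level was 27.6, 8.99 and 41.3 FPKM in WT sham, 6.75, 35.9 and 8.77 FPKM in CKO sham, then 3.69, 8.35 and 6.02 FPKM in WT IRI against 63.4, 32.2 and 37.8 FPKM in CKO IRI. Sham libraries varied widely within each genotype, and the injured groups did not overlap. The 32 NRF2 target and glutathione synthesis genes had a median of 0.11 and the 20 selenoprotein genes of 0.04.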

How the data were processed

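The authors deposited 1 table of transcript levels for 12 libraries, read here as FPKM. Its header names no unit, and TPM, which the same software can write, would differ by a factor per library. The tools named, per the submitters' processing notes, are StringTie, HISAT2 2.1.0 and cutadapt, and the notes give a human build (GRCh38) although the transcript identifiers are mouse. Per the labels, the libraries mark strand, and no strand setting for counting is given in the sources used here. Of 25790 transcripts, 25740 matched GENCODE M21 (GRCm38), and the 50 others held at most 0.103% of a library. Levels were summed per gene. Library sums were 391002 to 422328 FPKM. Read depth is unknown, so no counting error is given.

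Genes were modelled on the log2(FPKM + 1) scale with limma 3.58.1 (R 4.3.3), which took 4 group means and a mean-variance trend, for genes with at least 1 FPKM in 3 libraries. This scale understates changes of low genes. P-values were two-sided and adjusted by Benjamini-Hochberg within each of 5 contrasts, and called at an adjusted p under 0.05. Counts of genes that rose or fell with injury are of genes called. On simulated data with unequal group spreads, this fit was liberal, and the cause was not tested.

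The comparison and the 41 gene lists were chosen with earlier results of these data known. Named genes were Gpx3, the 12 of smallest interaction p on each side (predicted symbols left out) and up to 3 members of smallest p in each described list. Described lists were 5 chosen ones and those whose median was among the 8 farthest from that of all genes. The interferon, ribosomal and amino acid lists, the transition zone list and the genes said to be singled out were taken up after their values were seen. Scaling, filters, pseudocounts, array weights, the highest transcript, a replicate block and each library left out were tried as alternatives. Some genes that this rule selects are left out of the text and figures, but counts include them.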

Additional observations from a re-analysis of the deposited data

Results flagged for a closer look

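In Pofut2 the injury changes of the 2 genotypes differed by the interaction test, by -1.69 on the log2 scale (SE 0.14, limma adjusted p = 0.00192). It was lower in all 3 CKO IRI libraries than in every other library.

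In Tmem67 the injury changes also differed by that test, by 1.66 on the log2 scale (SE 0.16, limma adjusted p = 0.00303), and the 3 WT IRI libraries were at or near 0. Groups of 3 are too small for the check of single outlying libraries.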

How the results depend on the processing

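Over 24 alternatives and 73 named genes, 1740 interaction values were computed, of which 1623 kept their direction and side of the threshold, 99 came to pass, 1 no longer passed and 17 reversed. Pofut2 passed in all 24 alternatives (adjusted p from 8.42e-05 to 0.0476, limma). Tmem67 could not be fitted with the 5 FPKM filter, which removes it, and passed in the others except the replicate block.

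Against 1 gene above and 1 below 0, the interaction called 347 and 494 with array weights, 7 and 2 with the highest transcript per gene, 3 above with quantile normalization, 0 above with the 5 FPKM filter, and 2 and 2 without CKO IRI 15 and WT IRI 13, an alternative chosen after seeing the data. For injury in CKO (711 higher, 185 lower), array weights gave 2275 and 1276, the highest transcript 438 and 106, leaving out that pair 1420 and 540, and quantile normalization 296 lower. Between sham groups (0 and 0), array weights called 56 and 68, no filter 2 higher, trimmed-mean scaling and no mean-variance trend 1 higher each, and a pseudocount of 0.1 1 lower. Between injured groups (3 and 2), array weights called 321 and 402, the highest transcript 13 higher, and the 5 FPKM filter 0 higher. Pseudocounts of 0.1 and 0.5, the 5 FPKM filter, quantile normalization and trimmed-mean scaling gave 1 lower each.

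The replicate numbers are shared by the sham groups only, and same-numbered sham libraries did not deviate together (correlations 0.004, -0.031 and -0.002, 0 of 6 closest to their own number). With the replicate block the interaction called 0 above 0, injury in WT 938 and 265, injury in CKO 158 and 23, and the injured groups 1 higher. Tmem67 then had an adjusted p of 0.0621.

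With 1 library left out, interaction counts ran from 1 to 310 above and 1 to 269 below 0, the highest of both without WT IRI 49. Injury counts ran from 2176 to 3307 higher and 905 to 1920 lower in WT and from 331 to 1080 and 61 to 378 in CKO. Genotype counts ran from 0 to 2 and 0 to 2 in sham and from 1 to 650 and 1 to 744 after injury. Gpx3 ran from 0.81 to 1.68.

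Reversed values were Ube3a -0.12, Gstt2 1.0, Gpx1 -0.01 and Gpx4 0.08 with the highest transcript, Gpx4 0.18 with quantile normalization and 0.04 with trimmed-mean scaling, and Gpx6 -0.37 without CKO IRI 15 and WT IRI 13. With 1 library left out, Gpx1 ran from -0.47 to 0.76, Gpx4 from -0.17 to 0.09 and Hbb-bs from -1.72 to 0.23, this last without WT IRI 49. The cause of these differences was not tested. Medians of the NF-kB, interferon, ribosomal, fatty acid oxidation and amino acid lists kept within 1.5 times of their value under each alternative run. The other described lists did not: medians ran from -1.26 to -0.48 for tubular injury, 0.52 to 1.08 for proximal tubule, 0.39 to 1.02 for brush border, 0.25 to 0.77 for cytochrome P450, -0.69 to -0.27 for cell cycle and -1.08 to -0.19 for MHC class II. They changed sign for blood (-1.64 to 0.23), glutathione peroxidases (-0.32 to 0.31) and other antioxidant enzymes (-0.03 to 0.18).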

Other observations

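Genes of cholesterol and fatty acid synthesis lay mostly above 0. In WT 9 of 28 fell and 1 rose with injury, and in CKO 2 fell and 0 rose. The median interaction was 0.59, with 26 of 28 above 0 and 6 at an unadjusted p under 0.05 (7.26% of all genes on that side). Genes of the immediate early and AP-1 list, transcription factors that stress induces within minutes, lay mostly below 0. Of 19 tested 13 rose in WT and 3 in CKO, with a median interaction of -0.62, or -0.99 without WT IRI 49.

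Genes of the mitochondrion were examined as 2 lists. Of 60 nuclear genes of oxidative phosphorylation 24 lay above 0 (median -0.10). At an unadjusted p under 0.05, 6 of them lay above 0 and 1 below, against 7.26% and 10.7% of all genes. Of 13 genes of the mitochondrial genome 11 lay above 0 (median 0.27), with 0 at such a p.

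Within 5 Mb of Gpx3, 95 genes were tested. Their median interaction was -0.15. At an unadjusted p under 0.05, 4 (4.21%) lay above 0 and 16 (16.8%) below, against 7.26% and 10.7% of all genes.

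When each gene was taken at its highest transcript in place of the sum, the genes called above 0 included Arhgef3, Ddx6, Kbtbd4, Tfdp2, Tle3 and Tmem67, and those below 0 were Pofut2 and Tacc2.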
